A study of Homo sapiens with 9 samples.

Results

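The expression of 10 genes of the ATF4 branch of the integrated stress response was measured in libraries of sorted HAP1 cells. The genes were chosen by name as ATF4, ATF3, DDIT3, TRIB3, ASNS, CHAC1, SESN2, DDIT4, PSAT1 and PHGDH, and all 10 were found among the 26485 gene models that were counted. HAP1 is a near-haploid, adherent human cell line that descends from a chronic myeloid leukaemia line. On hg38, as the count files give them, ATF3 (212565334 to 212620777), SESN2 (28259452 to 28282491) and PHGDH (119711796 to 119744226) lie on the plus strand of chromosome 1. ATF4 (chromosome 22, 39520559 to 39522686), CHAC1 (chromosome 15, 40953438 to 40956519), DDIT4 (chromosome 10, 72273919 to 72276039), PSAT1 (chromosome 9, 78297075 to 78330093) and TRIB3 (chromosome 20, 380629 to 397559) are on the plus strand too, and DDIT3 (chromosome 12, 57516588 to 57520517) and ASNS (chromosome 7, 97852117 to 97872542) on the minus strand. The samples were 3 libraries of 1 cell, and 2 libraries each of 10, 100 and 1000 cells. All libraries came from the same unmodified line in standard culture medium, with no treatment named in the labels, and each was purified with NAxtra magnetic beads and amplified with a stranded SMART-Seq kit. A single-cell library is 1 cell, and each other library is the sum of its cells, so in pools a lower level in every cell and silence in some of the cells cannot be told apart. The labels call the replicates biological, without naming separate cultures.

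In the integrated stress response, kinases that sense amino acid shortage, misfolded protein in the endoplasmic reticulum, viral RNA or haem deficiency phosphorylate the translation factor eIF2. Translation then falls for most mRNAs, while the ATF4 mRNA is translated better through upstream open reading frames, so that ATF4 activity is set largely after transcription. ATF4 is a bZIP transcription factor that binds C/EBP-ATF response elements with a partner, and it switches on further regulators (ATF3, DDIT3, TRIB3), growth control genes (SESN2, DDIT4), the glutathione-degrading enzyme CHAC1, and amino acid synthesis genes (ASNS, PSAT1, PHGDH).

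The core of the C/EBP-ATF response element, TGATGNAA, was looked for on both strands of the promoter windows that RefSeq gives for the 10 genes on GRCh38.p14, each from 250 bases before to 50 bases after a start site. All 10 genes had at least 1 window, 16 in all. The core was present in 3 of the 16 windows, belonging to 3 genes, whereas 3.62% of all 35116 windows held it. By gene, 3 of the 10 held it, against 4.46% of 27305 genes. The windows of ATF4, of DDIT3 and of TRIB3 largely overlapped, so the 16 were not separate sequences. ATF3 and ASNS each had another window without the core. The cyclic AMP response element, TGACGTCA, was in 0 of the 16 windows and in 1.85% of all windows. The 250 bases before the start site are shown for the 3 genes with a match, because they hold the core of the element that ATF4 binds. The capitals mark the match, which lay on the strand of the gene for ATF3 (positions -191 to -184 from the start site) and ASNS (-68 to -61), and on the opposite strand for CHAC1 (-209 to -202), where it reads TGATGCAA.
ATF3, chr1:212565157-212565406, plus strand: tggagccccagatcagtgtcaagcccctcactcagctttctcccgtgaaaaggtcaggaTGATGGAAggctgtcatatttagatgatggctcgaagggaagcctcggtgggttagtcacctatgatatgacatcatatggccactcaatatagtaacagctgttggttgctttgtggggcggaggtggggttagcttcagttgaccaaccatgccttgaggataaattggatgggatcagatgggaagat
ASNS, chr7:97872409-97872658, minus strand: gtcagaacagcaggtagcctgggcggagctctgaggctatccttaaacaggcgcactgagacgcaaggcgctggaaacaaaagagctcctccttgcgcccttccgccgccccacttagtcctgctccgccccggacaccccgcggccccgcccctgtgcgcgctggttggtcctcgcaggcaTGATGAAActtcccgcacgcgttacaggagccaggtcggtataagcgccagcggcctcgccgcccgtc
CHAC1, chr15:40953221-40953470, plus strand: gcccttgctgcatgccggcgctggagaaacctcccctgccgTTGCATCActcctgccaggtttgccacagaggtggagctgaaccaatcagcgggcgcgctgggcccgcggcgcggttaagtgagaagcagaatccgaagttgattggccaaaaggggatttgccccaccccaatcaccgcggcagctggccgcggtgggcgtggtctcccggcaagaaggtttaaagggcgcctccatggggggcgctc
A match is a description of the letters and no measure of binding. Sequence outside these windows was not searched, so a gene without a match may hold the core elsewhere. The genes were chosen by name as genes of the ATF4 response, which bears on their share of matches.

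The libraries held 42842970 to 61645865 assigned counts, and 13968 to 14478 gene models had at least 1 count in the single cells, against 16283 to 18634 in the libraries of more cells. Of 11 blood lineage markers, all had a mean under 1 CPM (read counts scaled to library size), and 5 were at 0 in all 9 libraries. The fibroblast markers DCN, LUM and FAP and the plasma cell markers TNFRSF17 and POU2AF1 were also at 0 throughout. The summed fibroblast list ranged from 53.8 to 174 CPM in the single cells and from 122 to 147 CPM in the other libraries, and the summed plasma cell list from 42.6 to 61.9 CPM in the single cells and from 46.8 to 54.6 CPM in the other libraries. PDGFRA (39.4 to 156 CPM in the single cells and 110 to 134 CPM in the others), COL1A1 (3.76 to 15.3 CPM and 8.51 to 16.8 CPM likewise) and SDC1 (42.6 to 61.9 CPM and 46.6 to 54.4 CPM) made up most of these sums, and their part in the results was not tested. HAP1 carries the BCR-ABL1 fusion as background knowledge, and BCR and ABL1 were counted in every library.

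All 10 genes had counts in all 9 libraries, and together they took 0.0854% to 0.122% of the counts of a single cell and 0.113% to 0.129% of those of the other libraries. Their summed level was 1209, 1181 and 875 CPM in Single Cell Rep 1, 2 and 3, against 1239 and 1126 CPM in the 10-cell libraries, 1265 and 1281 CPM in the 100-cell libraries and 1214 and 1221 CPM in the 1000-cell libraries. Single Cell Rep 3 was the lowest of the 9, and the other 2 single cells fell within the range of the libraries of more cells.

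**Figure D1:**
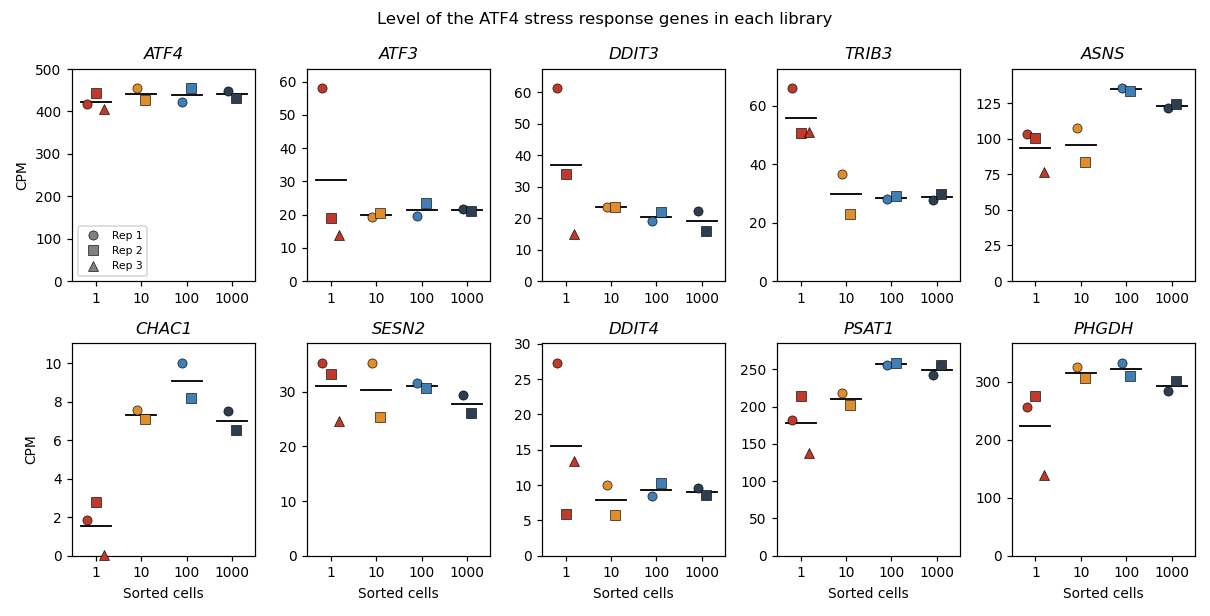
CPM (vertical axis, linear from 0, own scale per gene) of each of the 10 genes in each library, by the number of sorted cells (horizontal axis), with replicates as symbols and the mean as a line. The 3 single cells spread over 13.96 to 58.13 CPM for ATF3 and over 404.8 to 444.2 CPM for ATF4, and all 3 lie above the other libraries for TRIB3 and below them for CHAC1 and PHGDH.

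Compared per kilobase of exon, so that genes of different length can be set side by side, ATF4 was the most abundant of the 10, with 217.2 ± 7.13 CPM per kilobase in the 6 libraries of 10 to 1000 cells (SD, n = 6), rank 209 among all gene models. PHGDH (153.9), PSAT1 (105.8), ASNS (46.6) and DDIT3 (17.9) followed. Then came TRIB3 (10.0), SESN2 (8.42), ATF3 (8.22), CHAC1 (5.01) and DDIT4 (5.00), the last at rank 8804. The ranges of neighbours overlapped for TRIB3 and SESN2, for SESN2 and ATF3 and for CHAC1 and DDIT4, so these neighbours did not differ beyond their spread, while all other neighbours in the order had separate ranges. The transcript of the regulator itself and those of the amino acid enzymes therefore stood above those of the stress-inducible regulators. GENCODE 29 names 4 pseudogenes each for ATF4, ASNS and PSAT1, and reads that map to several places had been left out, so the levels of these 3 genes are uncertain.

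The study sequenced these libraries to see whether the NAxtra isolation is suited to transcriptome analysis of few cells, and single cells were set here against larger cell numbers. Of the 15603 genes tested with edgeR between the 3 single cells and the 6 other libraries together, 2.22% were called higher and 4.45% lower at an adjusted p under 0.05. All 10 ATF4 genes passed the filter on low counts, here and in the other comparisons, and 1 was called, TRIB3, which was higher, and 5 fold changes lay above 0 and 5 below, with a median log2 fold change of -1.81e-05 against 0.0132 over all genes tested. At an unadjusted p under 0.05, DDIT3 and TRIB3 had a fold change above 0, beside 10.8% of all genes, and CHAC1, PSAT1 and PHGDH below 0, beside 13.8% of all genes. Every single cell lay above the 6 other libraries for TRIB3 alone, as for 4.98% of all genes, and below them for CHAC1 and PHGDH, as for 10.0% of all genes. DESeq2 called 4 of the 10 (TRIB3 higher, CHAC1, PSAT1 and PHGDH lower) among 2595 genes, where edgeR called 1041.

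TRIB3, a pseudokinase that binds ATF4 and DDIT3 and dampens the response, had 66.1, 50.7 and 51.0 CPM in the 3 single cells, against 36.6 and 22.9 CPM in the 10-cell libraries, 28.1 and 29.1 CPM in the 100-cell libraries and 27.6 and 29.8 CPM in the 1000-cell libraries. The groups did not overlap, and the nearest pair was Single Cell Rep 2 and 10 Cell Rep 1. TRIB3 was 1.93-fold higher in single cells, with a log2 fold change of 0.95 ± 0.16 (SE, 95% interval 0.59 to 1.30, edgeR adjusted p = 0.0184, higher in 3 of 3 cells). The single cells had an SD of 0.22 in log2 CPM, smaller than the 0.48 between the 2 libraries of 10 cells. It was larger than the 0.036 and 0.076 between the 2 libraries of 100 and of 1000 cells. SDs of 3 and of 2 libraries are not like for like. The fold change stayed between 0.81 and 1.02 in 17 alternatives, but the adjusted p ran from 4.37e-06 to 0.389 and passed the threshold in 12. The 0.389 came from limma voom, the only alternative that did not assume equal spread at all cell numbers. The adjusted p of edgeR was 0.0607 for TRIB3 without 100 Cell Rep 2, 0.062 without 1000 Cell Rep 1 and 0.0634 without 1000 Cell Rep 2, with 0 genes called in each case and 2974 to 3028 genes at an unadjusted p under 0.05.

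**Figure D2:**
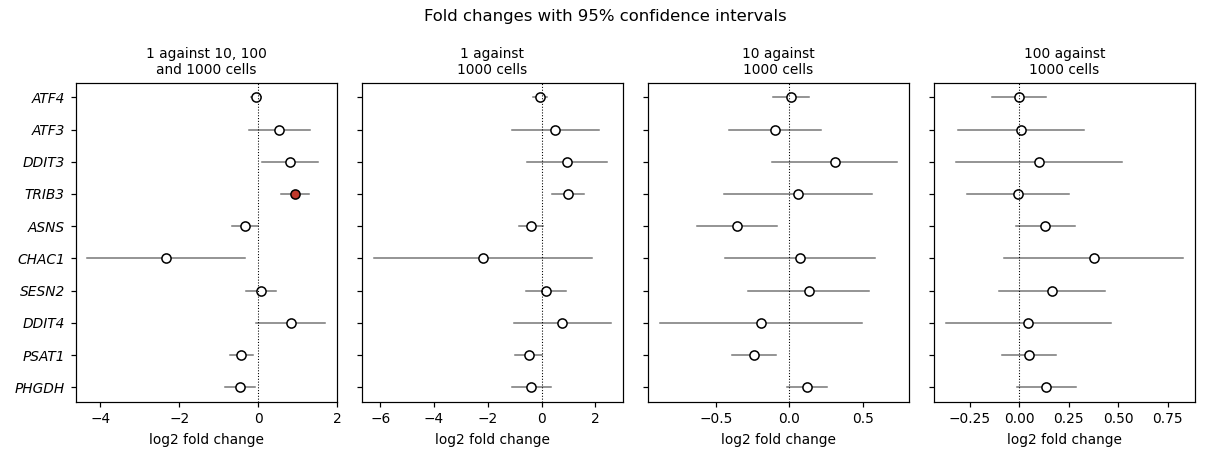
Log2 fold change (horizontal axis, own scale per panel) with its 95% confidence interval for each gene in the 4 edgeR comparisons, named by sorted cells, with filled points for an adjusted p under 0.05. Only TRIB3 in the first panel is filled, at 0.95, and the intervals for CHAC1 reach from -4.33 to -0.35 there.

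ATF4 itself was not called. It had 417, 444 and 405 CPM in the single cells, against 422 to 456 CPM in the 6 other libraries, and the groups overlapped. The log2 fold change was -0.06 ± 0.06 (SE, 95% interval -0.19 to 0.07, edgeR adjusted p = 0.578). The SD among single cells, 0.0684 in log2 CPM, was smaller than that of all but 5.84% of the 2278 genes of 100 to 1000 CPM, whose median SD was 0.23.

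The 2 further bZIP regulators spread widely between the single cells. ATF3, which mostly represses and is induced by many stresses, had 58.1, 19.1 and 13.96 CPM in the 3 single cells, against 19.1 and 20.6, 19.6 and 23.4, and 21.7 and 21.1 CPM in the libraries of 10, 100 and 1000 cells. Single Cell Rep 1 was above all other libraries, and the other 2 single cells were below all 6. Single Cell Rep 2, at 19.06 CPM, was nearly level with 10 Cell Rep 1, at 19.14 CPM. The log2 fold change of 0.54 ± 0.36 (SE, edgeR adjusted p = 0.391) turned to -0.35 without Single Cell Rep 1. DDIT3, which encodes the pro-apoptotic factor CHOP, had 61.3, 33.9 and 15.0 CPM in the single cells, against 23.6 and 23.4, 19.1 and 21.8, and 22.2 and 16.0 CPM in the libraries of 10, 100 and 1000 cells. Of the single cells, 2 were above all of these and Rep 3 was below all. The log2 fold change was 0.81 ± 0.33 (SE, edgeR adjusted p = 0.155), and without Single Cell Rep 3 it was called (1.18, edgeR adjusted p = 0.00908). That fit called 15% of all genes tested. DDIT3 overlaps MARS on the opposite strand and MIR616 on its own strand, and counting was strand-specific.

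The growth control genes SESN2 and DDIT4 both act against the kinase complex mTORC1. SESN2 had 35.3, 33.2 and 24.6 CPM in the single cells and 25.4 to 35.2 CPM in the other libraries, with a log2 fold change of 0.06 ± 0.18 (SE, 95% interval -0.32 to 0.45, edgeR adjusted p = 0.866). DDIT4 had 27.4, 5.84 and 13.4 CPM in the single cells, against 10.1 and 5.73, 8.46 and 10.2, and 9.55 and 8.59 CPM in the libraries of 10, 100 and 1000 cells. Single Cell Rep 1 and 3 were above all 6, and Rep 2 was within their range. Its log2 fold change was 0.82 ± 0.40 (SE, edgeR adjusted p = 0.236), and it was called, at 1.21 and an edgeR adjusted p of 0.0221, without Single Cell Rep 2. In that fit, 19.8% of all genes tested were called.

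CHAC1, which cleaves glutathione, was per kilobase the lowest of the 10 in single cells, at a mean of 0.991 CPM per kilobase. It had 1.83, 2.78 and 0.0192 CPM in the single cells, against 7.55 and 7.11, 10.0 and 8.16, and 7.49 and 6.54 CPM in the libraries of 10, 100 and 1000 cells. The groups did not overlap. The log2 fold change was -2.34 ± 0.91 (SE, 95% interval -4.33 to -0.35, edgeR adjusted p = 0.137, lower in 3 of 3 cells), while DESeq2 gave an adjusted p of 0.0266. It was called without Single Cell Rep 3 (-1.76, edgeR adjusted p = 0.0122), as were 15% of all genes tested in that fit. The value of Single Cell Rep 3 was 1 count, 408-fold below the mean of the 6 other libraries, with an exact Poisson 95% interval of 73.2 to 16100 that covers counting error only, since amplified reads without molecular identifiers are not separate molecules. Among the 1353 genes of 5 to 10 CPM in the 6 libraries, 0.517%, 1.48% and 2.96% had at most 1 count in Single Cell Rep 1, 2 and 3, and 6.73% lay below all 6 libraries in every single cell.

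The amino acid synthesis genes had fold changes below 0 in single cells, none of which edgeR called. ASNS, which makes asparagine, had 103, 100 and 76.3 CPM in single cells, against 107 and 83.9, 136 and 133, and 122 and 124 CPM in the libraries of 10, 100 and 1000 cells. The single cells overlapped with the 10-cell libraries, of which 10 Cell Rep 2 was the lower, but lay below all 4 libraries of 100 and 1000 cells. PSAT1, of the serine pathway, had 182, 214 and 137 CPM in single cells, against 218 and 202, 256 and 259, and 243 and 255 CPM in the libraries of 10, 100 and 1000 cells. Here too the overlap was with 10 cells only, as Single Cell Rep 2 exceeded 10 Cell Rep 2. PHGDH, which opens the serine pathway, had 257, 277 and 139 CPM in single cells, against 326 and 307, 333 and 310, and 284 and 301 CPM in the libraries of 10, 100 and 1000 cells, with no overlap.

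The fold changes were -0.34 ± 0.16 for ASNS, -0.43 ± 0.13 for PSAT1 and -0.47 ± 0.17 for PHGDH (log2, SE), with edgeR adjusted p of 0.21, 0.0724 and 0.117. DESeq2 gave 0.176, 0.0216 and 0.0481, so that the call for PSAT1 and PHGDH rested on the tool. Without Single Cell Rep 2, edgeR called PSAT1 (-0.58, adjusted p = 0.0145) and PHGDH (-0.65, adjusted p = 0.0341), beside 19.8% of all genes tested. Summed over the 3 genes, the level was 542, 591 and 353 CPM in the single cells, against 651 and 592, 725 and 702, and 649 and 680 CPM in the libraries of 10, 100 and 1000 cells. All 3 single cells lay below all 6 on this sum, though Single Cell Rep 2 was close to 10 Cell Rep 2.

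Which of the 10 genes lay outside the range of the 6 other libraries differed between the single cells, and large shares of all genes tested also lay outside it. Single Cell Rep 1 was above the range of the 6 other libraries for 5 genes (ATF3, DDIT3, TRIB3, SESN2 and DDIT4) and below it for 4 (ATF4, CHAC1, PSAT1 and PHGDH), beside 32.8% and 37.9% of all genes tested. In Single Cell Rep 2, 2 genes were above (DDIT3 and TRIB3) and 3 below (ATF3, CHAC1 and PHGDH), beside 31.8% and 38.3%. In Single Cell Rep 3, TRIB3 and DDIT4 were above and all 8 others below, beside 33.6% and 41.3%. Margins were very small for SESN2 in Single Cell Rep 1 and ATF3 in Single Cell Rep 2. They were 35.32 against 35.16 CPM and 19.06 against 19.14 CPM, each beside 10 Cell Rep 1. TRIB3 was the only gene above the range in every cell, and CHAC1 and PHGDH the only ones below it in every cell.

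**Figure D3:**
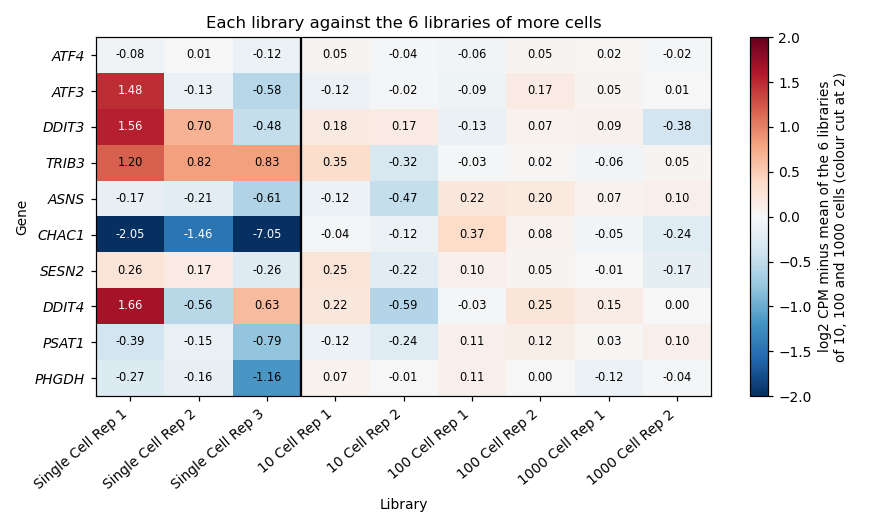
Log2 CPM of each gene (rows) in each library (columns) minus the mean of the 6 libraries of 10, 100 and 1000 cells, with the value in each cell of the map and the colour cut at 2. Single Cell Rep 1 stands at 1.48 for ATF3, 1.56 for DDIT3 and 1.66 for DDIT4, and CHAC1 is at -2.05, -1.46 and -7.05 in the 3 single cells.

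The spread between single cells was uneven over the 10 genes. ATF3, DDIT3 and DDIT4 had SDs of 1.08, 1.02 and 1.11 in log2 CPM among the 3 cells, and their highest cell was 4.16, 4.10 and 4.68 times the lowest. Of the 7535 genes with a mean of 10 to 100 CPM over all libraries, 89.8%, 88% and 90.5% had a smaller SD, and the median was 0.48. TRIB3 (0.22) and SESN2 (0.28) of the same level were below that median, at 14.8% and 22.1%. DDIT4 reached this level only through the single cells, with a mean of 15.5 CPM there and 8.77 CPM in the other libraries. Its SD was below the median of 1.83 for genes of 1 to 10 CPM, so its 90.5% depends on how the level is set. Among the genes of 100 to 1000 CPM, ASNS (0.24), PSAT1 (0.32) and PHGDH (0.55) were above the median of 0.23, and 95% of such genes were less variable than PHGDH. These SDs rest largely on Single Cell Rep 3, the lowest cell for each of these genes. It had 76.3, 137 and 139 CPM, against 103 and 100, 182 and 214, and 257 and 277 CPM in Rep 1 and 2. CHAC1 had an SD of 3.07, beside a median of 1.83 at 1 to 10 CPM, and 69.8% of genes at that level had a smaller one. That SD rests on the 1 count in Single Cell Rep 3, without which it was 0.418. The median SD of the 10 genes was 0.434, and 0.218 without Single Cell Rep 3.

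**Figure D4:**
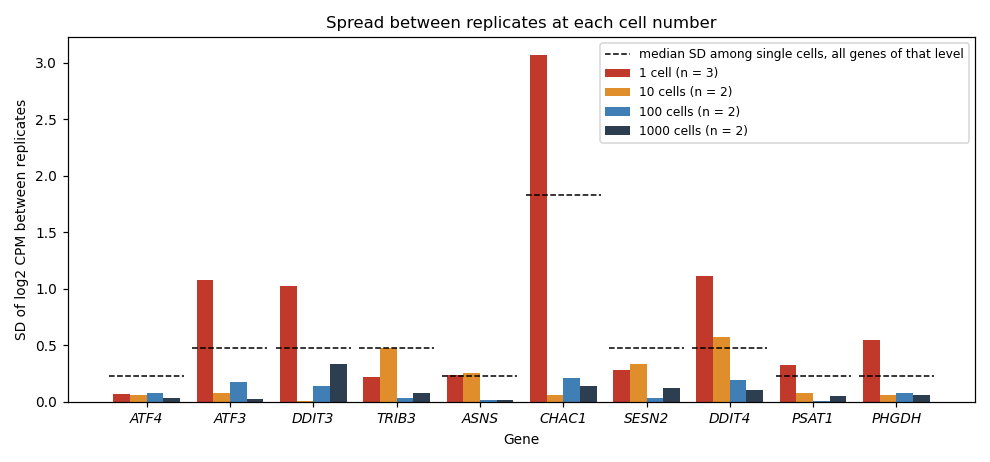
Bars give the SD among the replicates, in log2 CPM (vertical axis), for each gene at each cell number, with a dashed line for the median SD among single cells over all genes of the same mean level. ATF3, DDIT3 and DDIT4 exceed their line of 0.48 by a wide margin, while ATF4 stays at 0.0684 under a line of 0.23. The level is a mean over all libraries, which DDIT4 reaches only through the single cells, and the line for 1 to 10 CPM is at 1.83.

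With the 1000-cell libraries alone as the reference, edgeR called 0% of 15394 genes and none of the 10 in single cells, while 7.91% of all genes and TRIB3 had an unadjusted p under 0.05 (log2 fold change 0.97 ± 0.24, SE, edgeR unadjusted p = 0.00735, adjusted p = 0.209). DESeq2 called 49 genes. It gave no adjusted p for 6 of the 10 (ATF3, DDIT3, TRIB3, CHAC1, SESN2 and DDIT4), and of the 4 that had an adjusted p (ATF4, ASNS, PSAT1 and PHGDH) none was called. The 1000-cell libraries also served in the first comparison, so both sets of fold changes share these libraries.

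In the 10-cell libraries, edgeR called 0% of 15449 genes against 1000 cells, and 11.2% had an unadjusted p under 0.05, as had 2 of the 10 genes. ASNS (-0.36 ± 0.11, log2, SE, edgeR unadjusted p = 0.0168, adjusted p = 0.369) and PSAT1 (-0.24 ± 0.06, edgeR unadjusted p = 0.0065, adjusted p = 0.333) were these 2, and both 10-cell libraries lay below both 1000-cell libraries for each. DESeq2 called 194 genes, PSAT1 among them at an adjusted p of 0.0499, and gave no adjusted p for CHAC1 and DDIT4. The other 8 genes had log2 fold changes of -0.20 for DDIT4 to 0.31 for DDIT3. TRIB3, higher in single cells, was at 0.06 ± 0.21 (95% interval -0.44 to 0.56), with 36.6 CPM in 10 Cell Rep 1 above and 22.9 CPM in Rep 2 below the 1000-cell libraries. CHAC1 was at 0.07 ± 0.22 (95% interval -0.44 to 0.58), and both 10-cell libraries lay above all 3 single cells. Without either 10-cell library, when the lone one was assumed to vary like the 1000-cell libraries, edgeR called 4156 genes (without Rep 1) and 4721 genes (without Rep 2). PSAT1 and ASNS were lower in both, while TRIB3 was called lower (-0.32) in the first case and higher (0.35) in the second.

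In the 100-cell libraries, 0% of 15597 genes were called against 1000 cells by edgeR and 1 by DESeq2. Of all genes, 2.01% had an unadjusted p under 0.05, and of the 10 genes none. Their log2 fold changes lay between -0.01 for TRIB3 and 0.38 for CHAC1, which had the widest 95% interval, -0.07 to 0.83. ATF4 stood at -0.0027 ± 0.059. Without 100 Cell Rep 2, when the lone 100-cell library was assumed to vary like the 1000-cell ones, edgeR called 4951 genes, and ASNS (0.14), CHAC1 (0.52) and PHGDH (0.19) among them.

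The pathway around the 10 genes was read from lists in the same comparison of the single cells with the 6 other libraries, in which 2.22% of all genes were called higher and 4.45% lower. Upstream, of 14 tested genes for the eIF2 kinases, phosphatase subunits and their regulators, 0 were higher and 0 lower. GCN1, which activates the amino acid sensing kinase, was the most abundant, at 410, 403 and 496 CPM in single cells, against 348 to 398 CPM in the other libraries (log2 fold change 0.21, edgeR adjusted p = 0.128). PPP1R15A, named after its values were seen because its product reverses eIF2 phosphorylation as part of the response, had 98.8, 45.3 and 36.8 CPM in the single cells, against 27.9 to 35.7 CPM, and missed the threshold at 0.91 ± 0.25 (log2, SE, edgeR adjusted p = 0.0547). Of 10 eIF2 and eIF2B genes, EIF2S2, the beta subunit of eIF2, was lower (-0.42, edgeR adjusted p = 0.0296), with 138, 124 and 110 CPM in single cells and 151 to 185 CPM in the other libraries.

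Among 22 tested bZIP partners and relatives of ATF4, ATF5 was higher and none lower. ATF5, which like ATF4 is translated better when eIF2 is phosphorylated, had 64.2, 74 and 41.7 CPM in single cells, against 40.5 and 34, 43.1 and 31.4, and 28.4 and 30.5 CPM in the libraries of 10, 100 and 1000 cells (log2 fold change 0.79 ± 0.20, SE, edgeR adjusted p = 0.0378). Single Cell Rep 3 overlapped with 100 Cell Rep 1. CEBPG, a dimer partner of ATF4, had 85.7, 51.8 and 114 CPM in single cells and 97 to 118 CPM in the other libraries, without passing the test.

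Downstream, 0 of 13 amino acid transporter genes and 0 of 17 genes of serine, one-carbon and amino acid synthesis were called, with median log2 fold changes of 0.10 and -0.10. The most abundant of the 17 were BCAT1, a branched-chain aminotransferase (log2 fold change -0.12, edgeR adjusted p = 0.367), MTHFD1, a cytosolic folate enzyme (0.14, edgeR adjusted p = 0.462), and MTHFD2. MTHFD2, a mitochondrial folate enzyme of the same pathway as PSAT1 and PHGDH, had 247, 215 and 223 CPM in single cells, against 245 to 291 CPM (log2 fold change -0.24, edgeR adjusted p = 0.0845). Of 13 tRNA synthetase and export genes, WARS, the tryptophan enzyme, was higher (0.36, edgeR adjusted p = 0.0266), with 335, 280 and 286 CPM in single cells and 224 to 260 CPM in the other libraries, and 0 were lower. Of 26 other targets of ATF4 and CHOP, ATF5 was higher and SESN3, a relative of SESN2 under FOXO control, was lower (-0.61, edgeR adjusted p = 0.045). The median of these 26 was 0.19, and 17 lay above 0. Leaving out 1 library gave 0 to 8 higher and 0 to 2 lower genes. The 8 came without Single Cell Rep 2, in a fit that called 19.8% of all genes tested. The 0 of both came without 10 Cell Rep 2, 100 Cell Rep 2 or either 1000-cell library.

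Of 18 tested genes of the other arms of the unfolded protein response, 0 were higher and 5 lower, beside 2.22% higher and 4.45% lower over all genes. The 4 lower genes of largest change were SDF2L1 (-0.97), CRELD2 (-0.96), PDIA6 (-0.38) and HSP90B1 (-0.32), which encode chaperones, a disulfide isomerase and cofactors of the endoplasmic reticulum. CRELD2 had 23.2, 19.2 and 28.9 CPM in single cells, against 40.1 to 51.8 CPM in the other libraries (edgeR adjusted p = 0.0184). No gene of any list was called in 3 of the 9 fits that left out 1 library, those without 100 Cell Rep 2, without 1000 Cell Rep 1 and without 1000 Cell Rep 2.

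Genes that answer to handling were read as well, since the cells of both groups, single and pooled, had been sorted. Of 22 tested, JUN was higher (log2 fold change 1.11 ± 0.16, SE, edgeR adjusted p = 0.0131), with 32.6, 41.2 and 39 CPM in single cells and 14.8 to 19.1 CPM in the other libraries, and EGR3 was lower, with 0, 0 and 0.0383 CPM in single cells and 0.508 to 3.57 CPM in the other libraries. The median log2 fold change of the 22 was 0.199, against 0.0132 over all genes tested, with 18 above 0 and 4 below. Of the 22, 9, 8 and 12 lay above all 6 other libraries and 9, 8 and 7 below in Single Cell Rep 1, 2 and 3, beside the shares of all genes given above for the same cells. The part of handling in the level of TRIB3 was not tested.

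**Figure D5:**
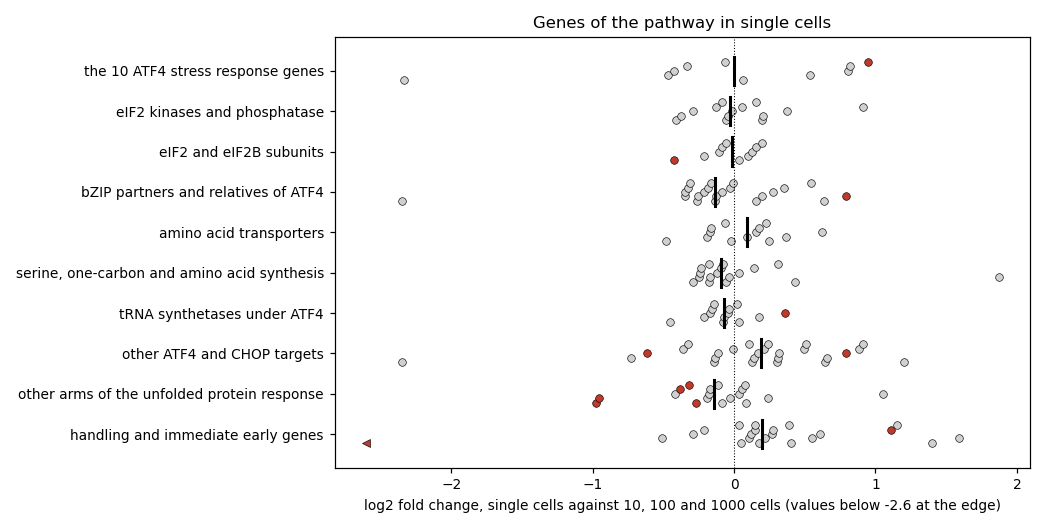
Log2 fold change of single cells against the libraries of 10, 100 and 1000 cells (horizontal axis) for the tested genes of each list, 1 point a gene, filled for an edgeR adjusted p under 0.05, with a bar at the median and EGR3, beyond the axis, drawn at its left edge. The 10 genes centre on 0 with CHAC1 at -2.34 and TRIB3 at 0.95, and the list of other unfolded protein response arms has 5 filled points, all below 0.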

How the data were processed

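Per the submitters' processing notes, quality control used FastQC 0.11.9 and trimming used Trim Galore 0.6.7. The alignment to hg38 was made by HISAT2 2.2.1, with SAMtools 1.16.1 for sorting. Gene counts came from featureCounts (Subread 2.0.6) in reversely stranded mode. The deposited values are raw read counts per gene, beside the exon length, a column of other values used only for levels per kilobase. Multi-mapped reads were left out.

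From these, TMM-scaled CPM was computed in R 4.3.3, with a prior count of 2 for log2 values. Each comparison was fitted in edgeR 4.0.16 (filterByExpr, quasi-likelihood, two-sided, Benjamini-Hochberg over all genes), on its own libraries, with DESeq2 1.42.0, limma 3.58.1, other filters and left-out libraries as alternatives. The fits were tested on simulated data with the same spread per gene in both groups. The 10 genes are described in full. Of the lists, at most 4 called genes per direction and the most abundant ones are named, with exceptions marked. The members and lists were chosen with earlier results of these data known. The p-values measure the spread between these libraries, and the edgeR fits assumed equal spread in both groups. For genes of 10 to 100 CPM, the median SD in log2 CPM was 0.479 among single cells and 0.149 over the 6 other libraries. With limma voom and weights per cell number, 0 genes were called.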

Additional observations from a re-analysis of the deposited data

Results flagged for a closer look

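DDIT4 in 10 Cell Rep 2 was at 5.73 CPM, against 8.46 to 10.2 CPM in the 5 other libraries of 10, 100 and 1000 cells. On log2 CPM, its gap to the nearest of these was 0.672 of the whole range, above the critical value of Dixon's test for 6 samples. It was the only 1 of the 10 genes to stand apart in this way. Chance gives such a gap in about 1 of 20 groups of like samples, and all 10 genes were looked at. The 6 libraries differed in cell number, so this rate need not hold for them.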

How the results depend on the processing

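For the single cells against the 6 other libraries, the count of 1041 genes and 1 of the 10 became 2595 and 4 with DESeq2, 682 and 1 without a filter, 575 and 1 (9 of the 10 tested) at a minimum of 10 CPM in 2 libraries, and 0 and 0 in a fit of all 4 cell numbers and with limma voom, where TRIB3 had an adjusted p of 0.103 and 0.389. DESeq2 size factors (1064) and thinning (1014) gave similar counts. Leaving out 1 library gave 0 to 3188 genes and 0 to 4 of the 10. The replicate numbers did not pair the samples (correlations of deviations -0.103 to 0.03 over 13470 genes). With the replicate block, 2077 genes and 3 of the 10 (TRIB3, DDIT3 and CHAC1) were called, and 5, 55 and 20 genes in single, 10 and 100 cells against 1000 cells, with none of the 10. Against 1000 cells, DESeq2 called 49, 194 (1 of the 10) and 1 genes in single, 10 and 100 cells, with an adjusted p for 4, 8 and all of the 10, no filter gave 123 and 31 for 10 and 100 cells, and the 10 CPM minimum 9 for 10 cells. Leaving out 1 library gave 0, 13 to 4721 (0 to 5 of the 10) and 3 to 4951 (0 to 3) in the same order. The highest counts, 4156, 4721 and 4951, came without either 10-cell library and without 100 Cell Rep 2, when the lone library was assumed to vary like the reference. With 100 and 1000 cells together as the reference for 10 cells, a choice made after seeing the data, 3 genes and none of the 10 were called, and CHAC1 turned to -0.13. After thinning, ATF4 (0.00405), ATF3 (-0.00905) and TRIB3 (0.00375) changed sign in 100 cells.

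Among fits without 1 library, log2 fold changes crossed 0 for ATF3 (-0.35 to 0.88) and SESN2 (-0.0429 to 0.205) in the first comparison and for ATF3 (-0.37 to 0.86) in single cells against 1000 cells. In 10 cells they crossed 0 for ATF4 (-0.0357 to 0.0507), TRIB3 (-0.32 to 0.35), SESN2 (-0.12 to 0.34), DDIT4 (-0.66 to 0.15) and CHAC1 (-0.0321 to 0.165), and in 100 cells for ATF4 (-0.0611 to 0.0489), ATF3 (-0.12 to 0.13), DDIT3 (-0.12 to 0.35), TRIB3 (-0.0587 to 0.0474) and DDIT4 (-0.10 to 0.18). The causes were not tested. The median SD among single cells ranged from 0.218 to 0.498, and the summed level from 1028 to 1195 CPM in single cells and from 1213 to 1244 CPM in the other libraries.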

Other observations

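Of the 26 other targets of ATF4 and CHOP, 14, 7 and 8 lay above all 6 libraries of more cells in Single Cell Rep 1, 2 and 3, beside 32.8%, 31.8% and 33.6% of all genes, and 6 lay below in each cell, beside 37.9%, 38.3% and 41.3%. Among the 3 single cells, 12, 8 and 6 of the 26 were highest in Rep 1, 2 and 3, with ERO1A (80.9, 84.3 and 113 CPM) highest in Rep 3 and VEGFA (81.1, 85.4 and 62.6 CPM) in Rep 2. The genes named here were chosen after their values were seen. HERPUD1, which serves degradation of misfolded endoplasmic reticulum proteins, had 87, 43.2 and 44.8 CPM in the 3 single cells, against 36.4 to 46.5 CPM in the 6 libraries of more cells. KLHL24 had 55.9, 18.4 and 32.5 CPM in the 3 single cells, against 17.8 to 31.9 CPM, and SQSTM1, an autophagy receptor, had 114, 77 and 82 CPM, against 78.4 to 85.9 CPM. HSPA5, of the other arms of the unfolded protein response and the main chaperone of the endoplasmic reticulum, was at 794, 540 and 523 CPM, against 551 to 626 CPM. Of the 18 tested genes of those arms, 6, 4 and 4 lay above all 6 libraries in Single Cell Rep 1, 2 and 3. In the same cells, 9, 10 and 11 lay below, beside the shares of all genes given above. The edgeR adjusted p of HERPUD1, KLHL24, SQSTM1 and HSPA5 over the 3 cells were 0.165, 0.324, 0.534 and 0.752, so none passed the test, and a single cell has no replicate of its own.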
